A study of Mus musculus with 2 samples.

Results

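The miR-30 family was followed through a comparison of 2 pull-downs from RAW264.7 cells, a mouse macrophage line made by transformation with a leukaemia virus. In each pull-down a probe was introduced into the cells for 24 hours and the captured RNA was recovered on streptavidin beads. One pull-down used a probe for the mRNA of Stat3, a transcription factor downstream of IL-6 and IL-10, and the other used a control probe, with 1 pull-down per probe. The study asked which miRNAs associate with Stat3 mRNA. Real-time PCR (SYBR green) on Exiqon multiplex miRNA arrays of 384 wells gave each assay a threshold cycle (Ct), the cycle at which the signal crosses a set line. Template doubles in a cycle of complete amplification, so a Ct lower by 1 stands for a factor of 2 more of it. The members are the 5 assays named mmu-miR-30a, mmu-miR-30b, mmu-miR-30c, mmu-miR-30d and mmu-miR-30e, written here without the mouse prefix, of 376 miRNA assays and 384 assays in all. They were chosen by name and not by their values, though with earlier results of these data known.

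A miRNA guides an Argonaute protein to mRNAs that pair with its seed, bases 2 to 8 counted from its 5′ end, and lowers their stability or translation. The members of the miR-30 family share one seed and differ towards their 3′ ends, so they can recognise many of the same mRNAs. The family is widely expressed and is best known for restraining the transcription factor Snai1 in the epithelial-mesenchymal transition, and miR-30a is also known for repressing Beclin 1, a protein that starts autophagy. The genes lie in neighbouring pairs in the RefSeq gene table (GRCm38.p6): Mir30a beside Mir30c-2, Mir30e beside Mir30c-1 within Nfyc, a gene for a subunit of the transcription factor NF-Y, and Mir30b beside Mir30d.

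The mature sequences are shown because the shared seed defines the family and the remaining bases decide how far the assays can be told apart. They come from RefSeq (GRCm38.p6), are written 5′ to 3′, and carry the seed in capitals. Of the 5 members, 3 were matched by name, with a name that gives no arm read as the 5p arm. The other members are miR-30b and miR-30d. miR-384-5p, an assay on the same plate, has the same seed.
miR-30a-5p: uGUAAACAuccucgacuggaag
miR-30e-5p: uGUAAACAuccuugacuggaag
miR-30c-5p: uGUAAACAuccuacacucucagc
miR-384-5p: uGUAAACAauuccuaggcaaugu
miR-30a-5p lies at chr1:23272274-23272295 on the plus strand, within the hairpin of Mir30a. miR-30e-5p lies at chr4:120772660-120772681 on the minus strand, within the hairpin of Mir30e. miR-384-5p lies at chrX:105344332-105344354 on the minus strand. Counted from the 5′ end, miR-30a-5p and miR-30e-5p differ by the single substitution C13U. miR-30c-5p shares its first 12 bases with both, and then differs at 5 of the 22 positions compared with miR-30a-5p. miR-384-5p shares only the first 8 bases with any of them.

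The 2 hairpins that yield miR-30c-5p are shown because the single miR-30c assay reads the product of both. The mature miRNA is in capitals.
Mir30c-1: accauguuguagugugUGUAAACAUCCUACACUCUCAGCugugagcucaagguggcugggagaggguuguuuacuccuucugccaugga
Mir30c-2: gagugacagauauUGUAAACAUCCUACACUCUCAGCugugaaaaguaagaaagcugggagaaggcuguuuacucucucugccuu
Mir30c-1 lies at chr4:120769534-120769622 on the minus strand and Mir30c-2 at chr1:23291701-23291784 on the plus strand. Since the mature sequence is the same in both, the Ct of miR-30c cannot be divided between the locus beside Mir30e and the locus beside Mir30a. The asterisk-named assay miR-30c-2*, read as the 3p arm of Mir30c-2, is the only arm-specific assay of the family on the plate.

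All 5 members had a lower Ct with the Stat3 probe than with the control probe, as did most miRNA assays below 35 cycles with both. Measured, for an assay in a pull-down, means a Ct below 35 cycles, the limit recovered from the deposited ratios. With the Stat3 probe all 5 members were measured, against 33.2% of all miRNA assays, and with the control probe 3 were, against 30.3%. Each ratio sets the Stat3 probe over the control probe and keeps the scale of the authors' deposited table, which adds 0.7 cycles to the Ct difference. On that scale 73.0% of the 100 miRNA assays measured in both pull-downs were at least 2-fold higher, which requires a lower Ct with the Stat3 probe. miR-30d and miR-30e fall outside those 100 assays. A lower Ct with the Stat3 probe was therefore not particular to the family. With 1 pull-down per probe there is no test, and no ratio has a replicate check.

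**Figure D1:**
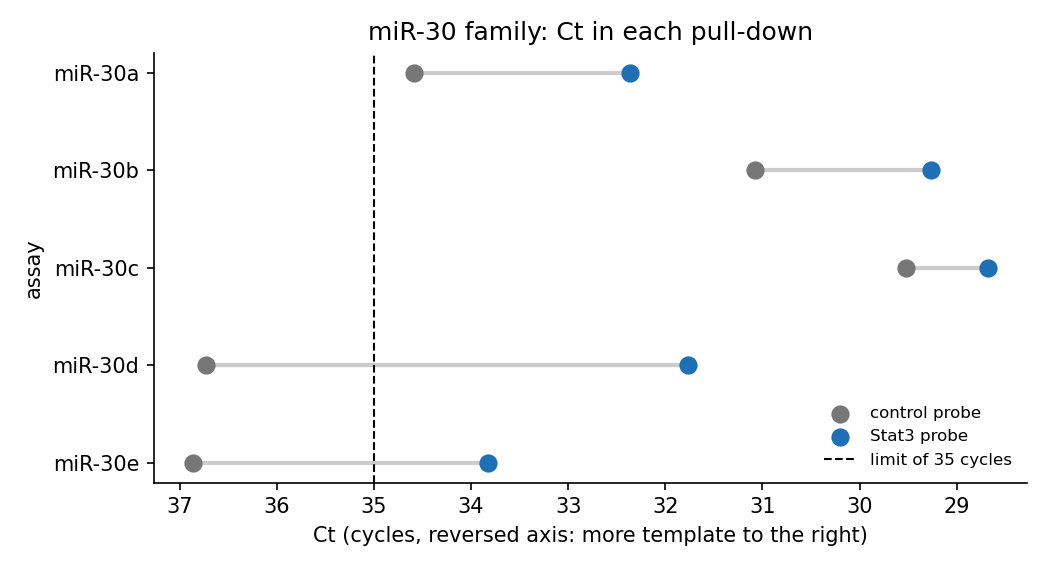
Ct of the 5 miR-30 assays (cycles, reversed so that more template lies to the right) with the control probe (grey) and the Stat3 probe (blue), 1 well each, with the limit of 35 cycles dashed. Every Stat3 point lies to the right of its control point, by 0.85 cycles for miR-30c up to 4.96 cycles for miR-30d, and the control points of miR-30d and miR-30e lie beyond the limit.

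miR-30c, the product of both hairpins above, had the lowest Ct of the family in either pull-down, a control Ct of 29.52 and a Stat3 Ct of 28.68. Its ratio was 2.92-fold, the smallest of the 3 members measured in both. By Ct it ranked 21 of the 114 miRNA assays measured in the control pull-down and 31 of the 125 measured in the Stat3 pull-down, so its place moved down although its own Ct was lower there. miR-30b, whose gene neighbours Mir30d, came up at cycle 31.08 in the control pull-down and at 29.26 in the Stat3 pull-down, and its ratio was 5.76-fold. It ranked 44 of 114 and 36 of 125. miR-30a gave a control Ct of 34.59, close to the limit, and a Stat3 Ct of 32.36, so that its ratio was 7.61-fold. Its ranks were 103 of 114 and 84 of 125.

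For miR-30d and miR-30e only the Stat3 pull-down was below the limit, as for 25 of all 376 miRNA assays (6.65%). miR-30d gave a control Ct of 36.73 and a Stat3 Ct of 31.77, at which it ranked 70 of 125. With the control well set at 35 cycles its ratio was at least 15.2-fold, and from the raw Ct values it was 50.5-fold. miR-30e, which differs from miR-30a by 1 base, gave 36.86 and 33.83, with a rank of 110 of 125 with the Stat3 probe. Its ratio was at least 3.66-fold by the limit and 13.3-fold from the raw values. A Ct above 35 comes from little template, and its precision on these plates was not measured.

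The median ratio of the 3 members measured with both probes was 5.76-fold, beside 4.22-fold over all 100 miRNA assays measured in both. Of these members, 3 of 3 were at least 2-fold higher, beside 73.0% of the 100 assays. At least 4-fold higher were 2 of 3, a level that the median of the 100 assays, 4.22-fold, also exceeded. With bounds included, 5 of 5 members were at least 2-fold higher, beside 69.1% of the 139 miRNA assays measured in at least 1 pull-down. These shares are not a like comparison. Setting the control well at 35 cycles fixes the direction of the bounds of miR-30d and miR-30e. The same holds for each of the 25 assays below the limit with the Stat3 probe alone. The 139 also hold 14 assays below it with the control probe alone, which cannot reach 2-fold on this scale. The 5 of 5 is therefore not a result about the family. Among the 100 assays ordered by ratio, miR-30a ranked 20, miR-30b 35 and miR-30c 60. The 3 members thus lay inside the main body of ratios, whose quartiles were 1.94-fold and 6.80-fold, except miR-30a, which lay slightly above the upper quartile.

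**Figure D2:**
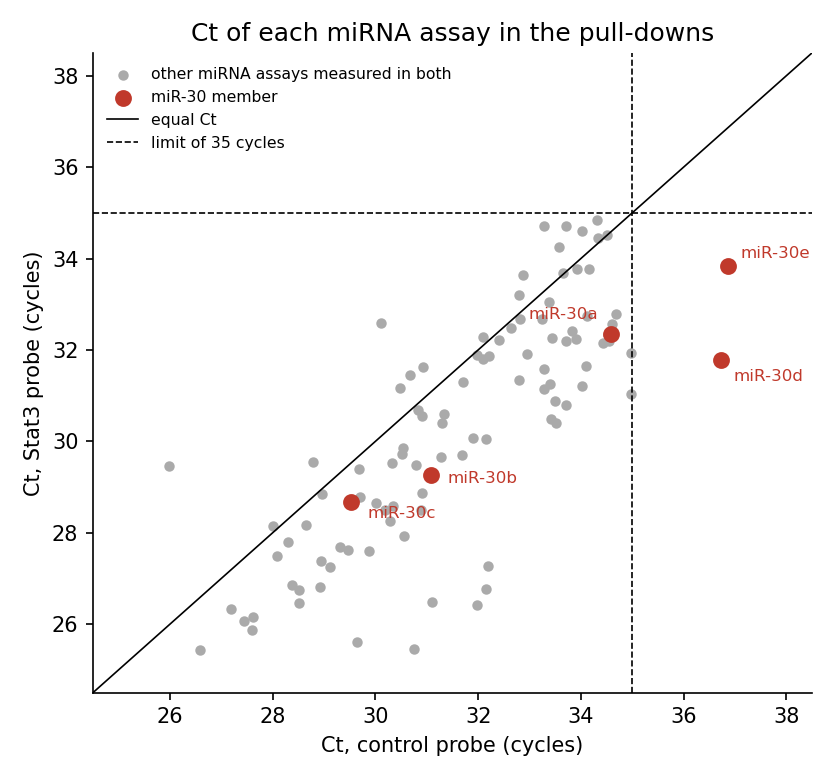
Ct with the Stat3 probe against Ct with the control probe (cycles), 1 point per assay, for the 97 other miRNA assays measured in both pull-downs (grey) and the 5 miR-30 members (red), with equal Ct as a solid line and the limit of 35 cycles dashed. The members lie below the line of equal Ct, as most assays do, and miR-30d (36.73 and 31.77) and miR-30e (36.86 and 33.83) lie to the right of the limit.

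The only error measured on these plates comes from UniSp3, a calibrator template of fixed amount that fills 3 wells of each plate. The difference between plates, control minus Stat3, had a mean of -0.89 ± 0.97 cycles (SD, n = 3 wells) and a range of 1.93 cycles, or 3.82-fold. This covers the PCR and the well and not the pull-down. The calibrator came up at Ct 21.18 to 23.67, before any member, and no error was measured at the Ct of the members. The range rests on the well in plate row B, at -1.91 cycles, while the wells in rows C and E, the set of alternate rows that holds all 5 members, stood at 0.02 and -0.76 and differed by 0.78 cycles. The ratios of miR-30a, miR-30b and miR-30c spanned 1.38 cycles, or 2.61-fold, which is less than the range over 3 wells and more than that over 2. miR-30a and miR-30b differed by 0.40 cycles, within either range, and miR-30c lay 0.98 cycles below miR-30b, beyond the smaller range only. With the control well of miR-30d set at 35 cycles, its ratio exceeded that of miR-30c by at least 2.38 cycles, more than either range. This was the largest such bound between members, and it depends on the limit. At 34 cycles the log2 bound of miR-30d was 2.93 against 1.55 for miR-30c, a gap within the range over 3 wells. No difference can be given between miR-30d and miR-30e at a limit of 35 cycles, since both ratios are bounds. From raw Ct values 4 of the 10 pairs of members differed by more than 1.93 cycles: miR-30d against miR-30c (4.11), miR-30b (3.13) and miR-30a (2.73), and miR-30e against miR-30c (2.18). miR-30d took part in most of these pairs and miR-30e in the remaining one, and the values of both rest on a control Ct above the limit. The share over all pairs of miRNA assays was not computed, so this count is not a result about the family.

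The order of the members by Ct changed at 1 place between the pull-downs. With the control probe it ran miR-30c, miR-30b, miR-30a, miR-30d, miR-30e, and with the Stat3 probe miR-30d stood before miR-30a. The calibrator wells varied over 0.57 cycles on the control plate and 2.20 cycles on the Stat3 plate, and those in rows C and E alone over 0.31 and 0.47 cycles. Of the steps in the order with the control probe, that from miR-30d to miR-30e, 0.12 cycles, lay within both spreads, and the others were 1.56 to 3.50 cycles. With the Stat3 probe only the step from miR-30b to miR-30d, 2.52 cycles, exceeded the spread of all 3 wells. The step from miR-30c to miR-30b was 0.58 cycles, that from miR-30d to miR-30a 0.59 cycles and that from miR-30a to miR-30e 1.47 cycles, each beyond the spread of the wells in rows C and E. That spread comes from 2 wells at a lower Ct than any member, so it cannot show whether these steps exceed the error at the members' own Ct. The whole family spanned 7.33 cycles in the control pull-down and 5.15 in the Stat3 pull-down. Assays can differ in efficiency, so this is an order of Ct and not of abundance.

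The neighbouring genes gave assays of unequal Ct. miR-30b and miR-30d, from adjacent genes, were 5.65 cycles apart with the control probe and 2.52 cycles apart with the Stat3 probe. miR-30a and miR-30c, which is also made from the locus beside Mir30a, were 5.06 and 3.68 cycles apart. miR-30e and miR-30c, which is also made from the locus beside Mir30e, were 7.33 and 5.15 cycles apart. In each of these pairs the gap was smaller with the Stat3 probe. The same held for every other pair of members except miR-30d and miR-30e, at 0.12 and 2.05 cycles, so it was not particular to neighbouring genes. For the 3 neighbouring pairs the change of the gap was 3.13, 1.38 and 2.18 cycles in turn. Of the 3, only miR-30a against miR-30c lay within the calibrator range of 1.93 cycles. It is also the only one of the 3 with no Ct above the limit. miR-30a and miR-30e, the pair that differs by C13U, were 2.27 cycles apart in the control pull-down and 1.47 in the Stat3 pull-down. How far either assay reads the other miRNA was not measured here.

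The other assays of the family and its seed were not measured. The authors' deposited table lists 1.625 for miR-30c-2*, the value it gives to each of the 238 assays at or above 35 cycles with both probes. The same value stands in the authors' deposited table for miR-384-5p, which carries the miR-30 seed, and for miR-384-3p, from the other arm of its hairpin. These assays have no well assigned here, so a low level in them was not detectable at this limit. Of the 4 plate assays whose printed sequence holds the seed, miR-30a, miR-30c and miR-30e were thus measured with the Stat3 probe and miR-384-5p was not.

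All 5 members lie in odd plate rows, counting row A as the first, and in columns 18 to 24, and ratios differed with plate position. The 74 miRNA assays of the odd rows that were measured in both pull-downs had a median ratio of 5.01-fold and 82.4% of them were at least 2-fold higher, while the 26 assays of the rows between had a median of 1.80-fold. Within the odd rows the median was 5.03-fold in columns 1 to 8, 3.26-fold in columns 9 to 16 and 5.80-fold in columns 17 to 24. In that last block, where 29 assays were measured in both and 89.7% were at least 2-fold higher, miR-30a ranked 8, miR-30b 16 and miR-30c 23. Relative to the block's median the log2 ratio was 0.39 for miR-30a, -0.01 for miR-30b and -0.99 for miR-30c, and at least 1.39 for miR-30d and -0.66 for miR-30e. None of the 3 members measured in both lay farther from the block's median than the calibrator range of 1.93 cycles, and 1, miR-30c, lay beyond the 0.78 cycles of the calibrator wells in rows C and E. From raw Ct values miR-30d stood 3.12 above that median and miR-30e 1.19 above it on the log2 scale. The median of the 3 members measured in both, 5.76-fold, therefore stood level with the wells around it. Over all 5 members from raw Ct values the median log2 ratio was 2.93, which includes the control wells of miR-30d and miR-30e above 35 cycles. The block's median of 2.54 covers only its 29 assays measured in both. These medians rest on unlike sets, so they cannot show whether the whole family stood above its block. The block was chosen after seeing the data. The part of plate position in the ratios was not tested.

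**Figure D3:**
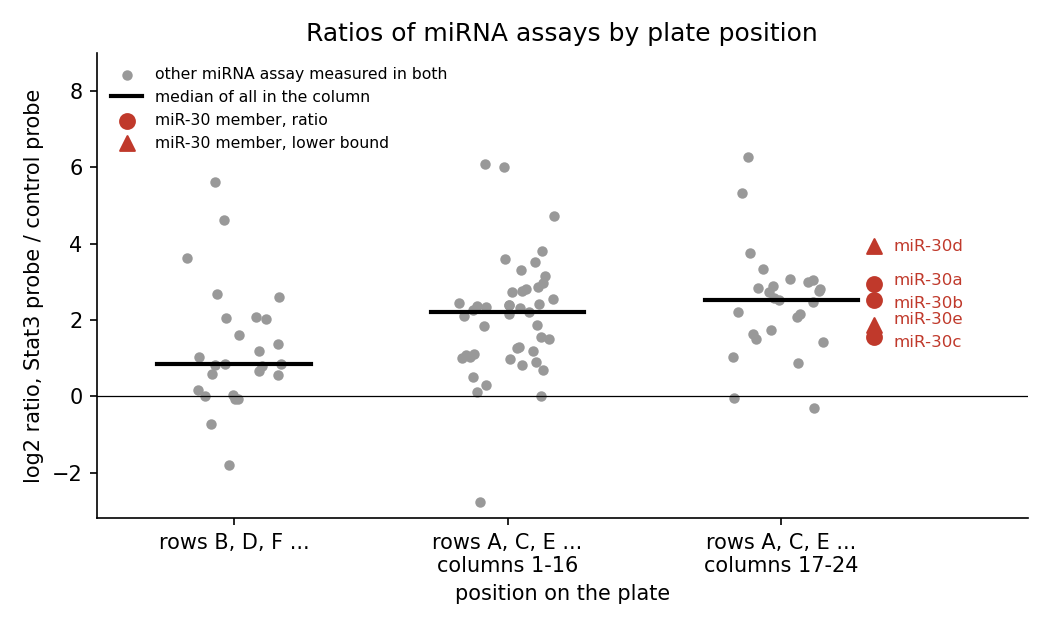
Log2 ratio of Stat3 probe over control probe for the miRNA assays measured in both pull-downs, by position on the plate (grey points, with the median of all such assays in each column as a bar), and the miR-30 members in red beside the block that holds them (circles are ratios, triangles lower bounds). miR-30b (2.53) sits at the block's median of 2.54, with miR-30a (2.93) and the bound of miR-30d (3.93) above it and miR-30c (1.55) and the bound of miR-30e (1.87) below it.

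The direction of the members depended on the zero of the scale. With no offset the log2 ratio was 2.23 for miR-30a, 1.83 for miR-30b and 0.85 for miR-30c, and with the UniSp3 calibrator at 0 it was 3.11, 2.71 and 1.73. With the median of all miRNA assays at 0, miR-30a stood at 0.85 and miR-30b at 0.45, while miR-30c fell below 0, at -0.53. With the mean of 4 reference miRNAs (miR-16, miR-103, miR-423-3p and miR-191) at 0, miR-30a stood at 0.36, miR-30b at -0.04 and miR-30c at -1.02. Without miR-423-3p, whose own ratio was 49.5-fold against 1.47-fold to 4.22-fold for the other references, miR-30a stood at 1.38, miR-30b at 0.98 and miR-30c at -0.01. The bound of miR-30d stayed above 2-fold on each of the 8 scales tried, lowest at 1.36, and the bound of miR-30e fell to -0.70, where it no longer gives a direction. The differences between members do not depend on the scale.

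**Figure D4:**
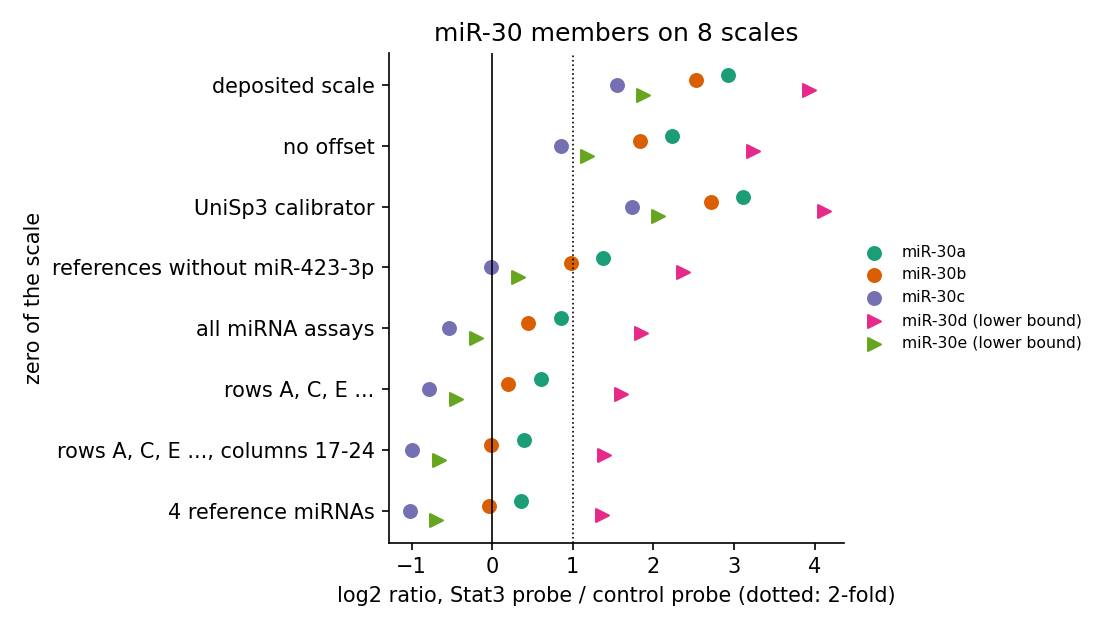
Log2 ratio of Stat3 probe over control probe for each miR-30 member (circles are ratios, arrowheads lower bounds) with the zero of the scale set in 8 ways, the solid line at equal levels and the dotted line at 2-fold. On the deposited scale every value lies above 2-fold; with the 4 reference miRNAs at 0, miR-30c lies at -1.02, miR-30b at -0.04 and miR-30a at 0.36, and only the bound of miR-30d, 1.36, is above 2-fold.

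The assays most like each member were found by their distance in the pair of Ct values, over the 2 pull-downs. Nearest to miR-30a were miR-96, miR-10a and miR-421, within 0.20 cycles, at 7.44-fold, 8.28-fold and 6.71-fold. Nearest to miR-30b were miR-191, let-7d and miR-139-5p, within 0.43 cycles, at 4.06-fold, 6.59-fold and 5.00-fold. Nearest to miR-30c were miR-19b, miR-182 and miR-155, within 0.59 cycles, at 3.07-fold, 4.16-fold and 1.76-fold. None of these is a miR-30 miRNA. Only 3 of the 100 assays searched were members, so neighbours from other families were likely in advance. The ratio is computed from the same 2 Ct values as the distance, so near assays have near ratios by construction.

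Families and clusters of like size were compared by their members measured in both pull-downs, all of which lie in odd plate rows. By that measure the miR-30 family had neither the highest median nor the smallest spread. The comparison leaves out miR-30d and miR-30e, with bounds of 15.2-fold and 3.66-fold, and 1 let-7 member measured only with the Stat3 probe. It therefore does not rank the whole families. The 8 measured let-7 members spanned 8.77-fold from lowest to highest around a median of 5.87-fold. The 5 of the miR-23/27/24 clusters spanned 2.16-fold around 5.50-fold. The 3 of the miR-29 family spanned 3.37-fold around 2.13-fold. The miR-30 members measured in both spanned 2.61-fold, and no difference between these groups can be tested with 1 pull-down per probe.

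For the series as a whole, a Ct was given by 209 wells of the control plate and 225 of the Stat3 plate. Of 6 macrophage miRNAs fixed as markers, 5 were measured with either probe, and miR-142-5p was not. Of 12 marker miRNAs of other cell types, 6 were measured with the control probe, at Ct values of 30.47 to 34.94, and 2 with the Stat3 probe, at 31.17 and 34.70. Fewer such markers were therefore below the limit in the pull-down where more miR-30 members were. The part of this difference in the miR-30 ratios was not tested.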

How the data were processed

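Per the file headers, the plates were exported from SDS 2.3 as raw Ct values at a manual threshold of 0.15, without assay names. The authors deposited 1 ratio per named assay, headed as a log fold change; the values are linear ratios. Sorted, they were within 0.0005 of the factor of 2 raised to the Ct difference, control minus Stat3, plus 0.7 cycles, with Ct values above 35 or undetermined set to 35. Names were tied to wells by this identity (tolerance 0.0006): of 146 rows away from 1.625, 142 matched exactly 1 well, including all 5 members, and 4 a pair. miR-451 was separated from the spike-in UniSp6 by giving the latter the lowest Ct. No member's well carried an instrument warning. The matching was tested on simulated plates made with the same limit and offset, so that test could not check the limit and offset themselves. Python 3.11.15 and numpy 2.4.6 were used.

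The named assays were the members, other miR-30 and same-seed assays, the 3 nearest assays per member, and fixed references, markers and families. The members and lists were chosen with earlier results of these data known. Alternatives changed the limit, the offset or the wells. With 1 pull-down per probe, no test or depth-based interval was made. The probe sequences were not used here.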

Additional observations from a re-analysis of the deposited data

How the results depend on the processing

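Of 72 recomputed values, 31 kept their direction and lay within 1 calibrator SD (for counts, within 1.5 times), 32 moved further and 9 changed direction. Values are log2 ratios for miR-30a, miR-30b, miR-30c, the bounds of miR-30d and miR-30e, the family median and the number of members at least 2-fold higher. On the deposited scale they were 2.93, 2.53, 1.55, 3.93, 1.87, 2.53 and 5. With all miRNA assays at 0 they were 0.85, 0.45, -0.53, 1.85, -0.20, 0.45 and 1. With the odd plate rows (A being the first) at 0 they were 0.60, 0.20, -0.78, 1.60, -0.45, 0.20 and 1. With the 4 reference miRNAs at 0 they were 0.36, -0.04, -1.02, 1.36, -0.70, -0.04 and 1. Without miR-423-3p they were 1.38, 0.98, -0.01, 2.37, 0.32, 0.98 and 2. With columns 17 to 24 of those rows at 0, a choice made after seeing the data, they were 0.39, -0.01, -0.99, 1.39, -0.66, -0.01 and 1. Each of these follows from subtracting 1 constant from every assay, so the count at least 2-fold higher falls for other assays as well. On the deposited scale 69.1% of the 139 miRNA assays measured in at least 1 pull-down were at least 2-fold higher. Those 139 hold 14 assays below the limit with the control probe alone, as no member was, so 69.1% is not a like base. That share was not recomputed on the other scales, so the change in the count is not a result about the family. The limit moved only miR-30d and miR-30e beyond that spread: 5.66 and 3.73 from raw Ct, 2.93 and 0.87 at 34 cycles, and 4.93 and 2.87 at 36 cycles. Detection limits the family here, since 2 of its 5 control wells lie above 35 cycles, and no replicate gives the error of a pull-down. No paired analysis was possible because each probe has 1 pull-down.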
